A study of Mus musculus with 2 samples.

Results

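The 48 genes described here encode proteins of the G2 phase and of mitosis: cyclins and their kinases, the kinetochore and its checkpoint, the spindle, condensin and the machinery of cytokinesis. They were taken by name from a list, and all 48 had a row in the deposited count table of 20823 genes. The table holds 2 libraries of messenger RNA from hepatocytes of C57BL6J mice aged 8 weeks. One library, called APAP here, came from liver taken 24 h after acetaminophen, given in saline into the peritoneum at 300 mg/kg. The other, called control, came from liver labelled with no agent. Both libraries held 20000 hepatocytes, sorted for high surface Cxcr2 after cells carrying Cd31 (endothelial) or Cd45 (immune) had been removed. The number of animals behind each library is not given in the sources used here. Each group being 1 library, differences have no check against replicates and carry no p-value. All intervals are 95% counting intervals that compare these 2 libraries, not the conditions.

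Acetaminophen is turned by cytochrome P450 enzymes of hepatocytes into a reactive product that kills cells around the central vein, and surviving hepatocytes then divide to restore the tissue. Adult hepatocytes rest outside the cell cycle, and their mitotic transcripts are scarce. Cells that approach division build up cyclins A and B, which activate Cdk1, and the transcription factor Foxm1 raises many mitotic genes as a wave. Hepatocytes often end a cycle without cytokinesis, which leaves cells with a pair of nuclei or with polyploid nuclei, so early and late mitotic genes need not move alike. Whether late genes matched early ones is the question followed here.

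Promoters of such genes are known for a short element called the cell cycle genes homology region (CHR), bound by the MuvB complex, and for CCAAT boxes. Windows from 250 bases before to 50 bases after the start site were held for 40 members (43 windows, RefSeq, build GRCm38.p6). Each was searched on both strands for the CHR letters TTTGAA and for CCAAT. The CHR letters stood in 69.8% of member windows, against 12.3% of windows of other tested genes and 17.9% of all 32851 windows. CCAAT stood in 76.7% of member windows, against 38.2% of windows of other tested genes and 37.4% of all windows. Both stood together in 62.8% of member windows, against 4.99% of windows of other tested genes. The E2F-like letters searched were TTCCCGC together with TTGGCGC, and in addition TTCGCGC together with TTGCCGC. At least 1 of them stood in 20.9% of member windows, against 16.1% of windows of other tested genes. These are matches of letters, not binding sites, and CHR and CCAAT letters do not overlap in the windows printed here.

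Windows of 5 members show the pattern and its exceptions, with CHR and CCAAT letters (ATTGG on the other strand) in capitals. Ccnb2 encodes a cyclin of mitotic entry, Plk1 a mitotic kinase with 0 counts in control, Racgap1 a cytokinesis protein and Pttg1 the one member with a lower level in APAP. Cenpa, a member that changed little, holds both elements.
Ccnb2, chr9:70421505-70421804, minus strand: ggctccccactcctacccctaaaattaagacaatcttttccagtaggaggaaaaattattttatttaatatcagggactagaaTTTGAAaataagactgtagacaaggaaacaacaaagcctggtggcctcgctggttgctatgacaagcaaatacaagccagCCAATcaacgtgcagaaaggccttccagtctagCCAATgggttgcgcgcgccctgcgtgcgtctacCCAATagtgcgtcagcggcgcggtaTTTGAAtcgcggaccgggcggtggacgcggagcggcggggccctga
Plk1, chr7:122159185-122159484, plus strand: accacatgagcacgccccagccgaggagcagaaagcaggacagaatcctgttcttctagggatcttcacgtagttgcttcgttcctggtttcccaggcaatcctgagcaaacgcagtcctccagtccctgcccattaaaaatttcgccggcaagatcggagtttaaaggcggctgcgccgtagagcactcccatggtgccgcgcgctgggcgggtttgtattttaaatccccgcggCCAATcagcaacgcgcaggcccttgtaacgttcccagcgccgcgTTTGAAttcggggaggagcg
Racgap1, chr15:99651607-99651906, minus strand: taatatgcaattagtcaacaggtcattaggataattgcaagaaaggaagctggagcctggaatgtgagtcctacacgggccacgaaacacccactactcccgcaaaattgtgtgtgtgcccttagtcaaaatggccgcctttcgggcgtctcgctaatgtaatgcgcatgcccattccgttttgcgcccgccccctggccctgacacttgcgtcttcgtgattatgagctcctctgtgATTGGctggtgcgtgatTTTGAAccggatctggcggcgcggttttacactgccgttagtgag
Pttg1, chr11:43425932-43426231, minus strand: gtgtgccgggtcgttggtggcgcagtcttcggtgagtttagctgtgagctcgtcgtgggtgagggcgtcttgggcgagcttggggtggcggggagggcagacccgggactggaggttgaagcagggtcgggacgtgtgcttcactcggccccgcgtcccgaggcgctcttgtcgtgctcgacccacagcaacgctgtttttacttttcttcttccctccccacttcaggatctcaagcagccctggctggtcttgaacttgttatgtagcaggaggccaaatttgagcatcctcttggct
Cenpa, chr5:30666636-30666935, plus strand: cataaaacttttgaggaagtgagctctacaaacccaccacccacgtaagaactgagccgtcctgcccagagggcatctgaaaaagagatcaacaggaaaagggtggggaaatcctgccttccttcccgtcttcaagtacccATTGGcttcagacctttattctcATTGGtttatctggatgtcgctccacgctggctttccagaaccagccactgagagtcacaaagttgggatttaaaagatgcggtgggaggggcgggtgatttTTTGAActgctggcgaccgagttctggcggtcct
The Ccnb2 window holds CCAAT 87, 54 and 21 bases upstream of the start site, and TTTGAA 167 bases upstream and 5 bases downstream of it. The Plk1 window has CCAAT 14 bases upstream and TTTGAA 31 bases downstream. In the Racgap1 window the CCAAT letters lie 12 bases upstream on the other strand, and TTTGAA begins 6 bases downstream. Neither set of letters was found in the Pttg1 window, which says only that they are not in these bases. The Cenpa window has 2 CCAAT matches on the other strand, 109 and 86 bases upstream, and TTTGAA 17 bases downstream.

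**Figure D1:**
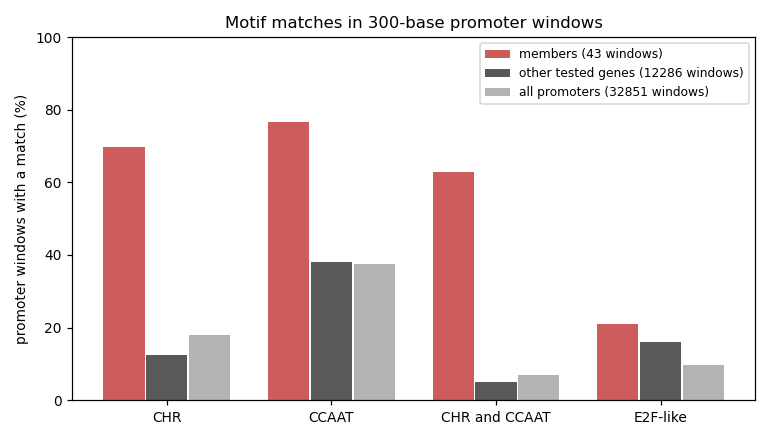
Bars give the percentage of promoter windows with at least 1 match to each motif, for member genes (left bar of each group), other tested genes and all promoters. CHR and CCAAT letters together stood in 62.8% of member windows and in 4.99% of those of other tested genes.

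Mitotic transcripts were more abundant in the APAP library, and stayed scarce. All 48 members had counts in the APAP library, and 37 had counts in the control library. Together they held 7718 counts in APAP and 2246 in control, which is 134 CPM and 48.3 CPM (counts per 1e+06 counts of a library total scaled by TMM). The summed level was 2.78-fold higher in APAP (2.65 to 2.91). Ccnf, Pttg1 and Cks2 held 31.6% of the members' counts in APAP and 58.8% in control, and the other 45 members together were 4.61-fold higher (4.30 to 4.95). The level was higher in APAP for 47 of 48 members, Pttg1 being the exception. This count sets no minimum size and no interval. It includes 11 members with 0 counts in control, which could only come out higher. Of the 43 members with enough counts to be tested, the interval lay above 1 for 41. It lay below 1 for Pttg1 and included 1 for Cenpa. Over all 14096 tested genes the interval lay above 1 for 4811 and below 1 for 4655.

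Higher and lower mean here a difference of 2-fold or more, APAP over control, with an interval that leaves out 1 and with 20 or more counts in the libraries together. Of the 48 members, 38 were higher, 0 were lower, 5 met neither rule and 5 held too few counts. Among all 14096 genes with at least 20 counts, 10.7% were higher and 7.09% were lower. Of the 43 members tested, 18 had fewer than 10 counts in control and passed the minimum only through their APAP counts. By this selection they had to hold more counts in APAP, though not to meet the rule. Of the 25 with at least 10 counts in control, 20 were higher, against 7.44% of all genes with that many counts there. The median log2 fold of the 43 members was 3.04 (3.02 with genes at 0 counts placed at their bound), and that of all tested genes was 0.02. The 18 members with fewer than 10 counts in control are part of that median. Over the 25 with at least 10 counts there it was 1.60, the value of Ncaph. Scaling by total counts raised every log2 fold by 0.35. It raised the share of higher genes among all genes that met the rule to 79.5%, against 60.2% with TMM. With it 40 members were higher, and the share of higher genes among all tested genes was 17.3%, against 10.7% with TMM.

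**Figure D2:**
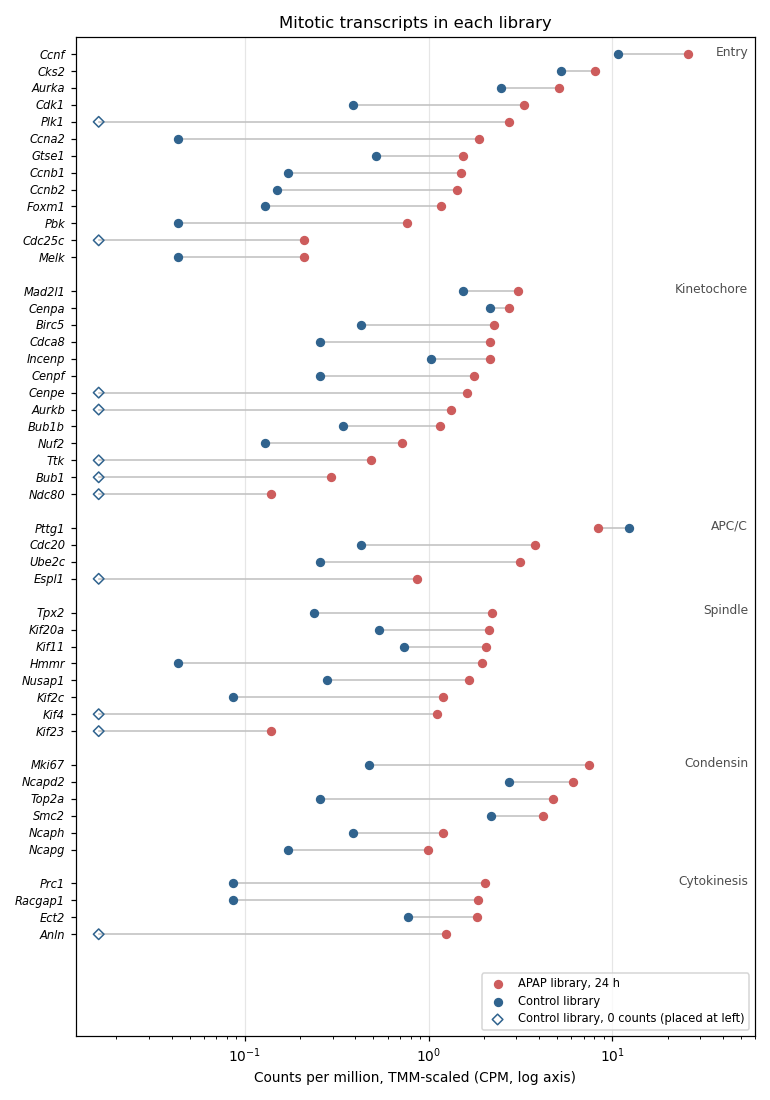
Each row is 1 gene, in 6 groups by role, with its level in the APAP library and in the control library in CPM on a log axis; open diamonds mark 0 counts in control. The APAP point lies right of the control point for every gene except Pttg1, as it must for the 11 genes with 0 counts in control.

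Per kilobase of annotated exon (GENCODE vM21), the 43 tested members had a median level of 0.427 CPM per kilobase in APAP and 0.0506 in control, against 2.38 and 2.39 for all tested genes. In APAP the levels per kilobase ran from 0.0990 for Ttk to 11.7 for Cks2. Cks2, Pttg1 and Ccnf were the 3 most abundant members on that scale in both libraries, with 11.7, 4.18 and 3.33 CPM per kilobase in APAP and 7.64, 6.15 and 1.38 in control. Members that stood high in control were therefore few, and most of the others lay near or at 0 there. In these bulk libraries a larger share of dividing cells and more transcript per cell cannot be told apart.

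The hepatocyte label was checked against markers of liver cells. Alb, Apoa1, Hnf4a and the other 7 hepatocyte markers were all listed, with a summed level of 107738 CPM in APAP and 67918 CPM in control. They did not move as 1: the interval lay above 1 for 5 of the 10 and below 1 for 5. By the 2-fold rule 2 were higher, Fgb and Trf, and 0 were lower. Alb had a ratio of 1.57 and Hnf4a one of 0.949. The transcript of the sorted surface protein, Cxcr2, had 2 counts in APAP and 0 in control. Markers of other cells also differed. Of 15 macrophage markers 8 were listed, with a summed level of 7.46 CPM in APAP and 0.151 CPM in control, mostly from Cd68, with 287 and 3 counts in these libraries. The 3 macrophage markers with enough counts, Cd68, Cd14 (78 counts in APAP and 4 in control) and Csf1r (24 and 0), were all higher. Cd5l and Marco, known from Kupffer cells, had 16 and 10 counts in APAP and 0 in control. C1qc, C1qa and Lyz2 had 6, 4 and 4 counts in APAP and 0 in control. Adgre1, Clec4f, Vsig4, Timd4, C1qb, Itgam and Ccr2 had no row. Of 12 stellate cell markers 10 were listed, with 11.3 CPM in APAP and 1.35 CPM in control, mostly from Reln. Of the 4 tested 2 were higher, Reln and Col3a1, the latter with 21 counts in APAP and 0 in control. Dcn and Rgs5 had 23 and 22 counts in APAP and 12 each in control, and met neither rule. Des had 16 counts in APAP and 2 in control, and Lrat 6 and 2. Pdgfrb, Col1a1, Hand2 and Col1a2 had 14, 2, 2 and 1 counts in APAP and 0 in control.

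Endothelial markers, 11 of 12 listed, summed to 17.4 CPM in APAP and 17.4 CPM in control, with 4 of 9 tested higher and 2 lower. Pecam1, which encodes the Cd31 of the sort, had 96 counts in APAP and 25 in control, 3.11-fold higher (1.98 to 5.04). Cdh5, Lyve1 and Tek had 201, 37 and 30 counts in APAP, against 25, 4 and 6 in control. Stab2 and Tie1 were lower, with 229 and 78 counts in APAP, against 387 and 146 in control. Among cholangiocyte markers Sox9 and Spp1 were higher, with 1398 and 573 counts in APAP, against 99 and 41 in control. Cldn4 and Muc1 had 12 counts each in APAP and 0 in control, and Krt19, Krt7, Epcam and Cftr had no row. Neutrophil markers, 2 of 10 listed, summed to 0.174 CPM in APAP and 0.0860 CPM in control. Lymphocyte markers, 4 of 12 listed, summed to 0.174 CPM in APAP and 7.93 CPM in control, and Ptprc, which encodes Cd45, had no row. Erythroid markers, 5 of 10 listed, summed to 63.4 CPM in APAP and 110.9 CPM in control, mostly from Alas2. Alas2 and Klf1 were lower, with 2092 and 102 counts in APAP, against 4453 and 184 in control. Tfrc was higher, with 1448 counts in APAP and 519 in control. The part of other cells in the mitotic transcripts was not tested.

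Regulators of mitotic entry came first in the order of events. Of these 13 members 10 were higher, 1 met neither rule and 2 held too few counts, and the median log2 fold of the 11 tested was 3.07. Cdk1, the kinase that starts mitosis, had 191 counts in APAP and 18 in control, 8.58-fold higher (5.29 to 14.8). Its partners Ccnb1 and Ccnb2, the B-type cyclins, had 86 and 82 counts in APAP, against 8 and 7 in control. Ccnb1 was 8.70-fold (4.22 to 20.8) and Ccnb2 9.48-fold higher (4.40 to 24.3), and the intervals of these 3 genes overlapped widely. Ccna2, the cyclin of S and G2 phase, had 108 counts in APAP and 2 in control, a ratio of 43.7 (11.8 to 365).

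Foxm1, the transcription factor behind many of these genes, had 67 counts in APAP and 6 in control, 9.03-fold higher (3.94 to 25.5). Plk1, a kinase that activates Cdk1 and builds spindle poles, had 157 counts in APAP and 0 in control, at least 42.3-fold higher against a floor of 3 counts. This bound takes the APAP count without error; with its counting error it is 34.0, and 16.7 with counts halved in case mates were counted separately, and the other bounds given this way fall likewise. Pbk, a mitotic kinase gene, had 44 counts in APAP and 2 in control, a ratio of 17.8 (4.64 to 152). These genes were near absent from the control library. Ccnf, Aurka and Gtse1 were present there and changed less. Ccnf, which encodes a ubiquitin ligase subunit that peaks in G2, had 1495 counts in APAP and 502 in control, 2.41-fold higher (2.18 to 2.67). Aurka, the spindle pole kinase, had 295 counts in APAP and 115 in control, 2.08-fold higher (1.67 to 2.60). Gtse1, a microtubule-binding protein of G2, had 89 counts in APAP and 24 in control, 3.0-fold higher (1.89 to 4.93).

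Cks2, a small subunit of cyclin-dependent kinases, did not reach 2-fold, with 465 counts in APAP and 246 in control, a ratio of 1.53 (1.31 to 1.79). Cdc25c, the phosphatase that activates Cdk1, had 12 counts in APAP and 0 in control. Melk, a mitotic kinase gene, had 12 and 2 counts in these libraries. Both lay under the minimum of 20 counts.

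The kinetochore links chromosomes to the spindle, and its checkpoint holds anaphase until all are attached. Of 13 members of this group and of the chromosomal passenger complex, 9 were higher, 2 met neither rule and 2 held too few counts, with a median log2 fold of 2.38 over the 11 tested. Mad2l1, the checkpoint protein that restrains Cdc20, had 177 counts in APAP and 72 in control, a ratio of 1.99 (1.504 to 2.65), just under the 2-fold rule. Bub1b, its partner in that inhibitor, had 66 counts in APAP and 16 in control, 3.34-fold higher (1.91 to 6.17). The checkpoint kinase genes Ttk and Bub1 had 28 and 17 counts in APAP and 0 in control, Ttk at least 7.55-fold higher and Bub1 below the count minimum. The checkpoint genes thus ran from no counts in control to well detected ones.

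Cenpe, the motor that carries chromosomes to the spindle middle, had 93 counts in APAP and 0 in control, at least 25.1-fold higher. Cenpf, a large kinetochore protein, had 102 counts in APAP and 12 in control, 6.88-fold higher (3.77 to 13.7). Nuf2 and Ndc80 encode partners in the microtubule-binding complex of the kinetochore. Nuf2 had 41 counts in APAP and 6 in control, 5.53-fold higher (2.33 to 15.9), and Ndc80 had 8 and 0. Cenpa, the histone that marks centromeres, had 157 counts in APAP and 101 in control, a ratio of 1.26 (0.973 to 1.63). The interval includes 1, and at this depth a change of Cenpa could not be seen with TMM scaling.

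The 4 chromosomal passenger genes were all higher, by unequal amounts. Aurkb, the kinase of the complex, had 76 counts in APAP and 0 in control, at least 20.5-fold higher. Cdca8, which encodes borealin, had 125 counts in APAP and 12 in control, 8.43-fold higher (4.66 to 16.7). Birc5, which encodes survivin, had 131 counts in APAP and 20 in control, 5.30-fold higher (3.29 to 8.96). Incenp, the scaffold, had 124 counts in APAP and 48 in control, 2.09-fold higher (1.49 to 2.98). The scaffold gene was thus the best detected of the 4 in control.

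Anaphase starts when Cdc20 and the anaphase promoting complex (APC/C), fed by the ubiquitin-conjugating enzyme Ube2c, destroy securin (Pttg1) and so free separase (Espl1). Of these 4 members 3 were higher. Cdc20 had 218 counts in APAP and 20 in control, 8.82-fold higher (5.57 to 14.7). Ube2c had 181 counts in APAP and 12 in control, 12.2-fold higher (6.82 to 24.1). Espl1 had 50 counts in APAP and 0 in control, at least 13.5-fold higher. Pttg1 went the other way, with 481 counts in APAP and 572 in control, a ratio of 0.680 (0.601 to 0.769). Its ratio was below 1 with the other scalings too, at 0.672 to 0.864, and did not reach 2-fold with any. The separase gene was thus seen in the APAP library alone, and the gene of its inhibitor was well counted in both.

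Each of the 7 tested members of the spindle group was higher. Their median log2 fold was 3.18, and Kif23 held too few counts. Tpx2, which seeds spindle microtubules, had 128 counts in APAP and 11 in control, 9.41-fold higher (5.09 to 19.3). Kif20a, a kinesin of the central spindle, had 122 counts in APAP and 25 in control, 3.95-fold higher (2.55 to 6.34). Kif11, the motor that pushes spindle poles apart, had 118 counts in APAP and 34 in control, 2.81-fold higher (1.90 to 4.24). Hmmr, a spindle assembly factor, had 112 counts in APAP and 2 in control, a ratio of 45.3 (12.3 to 379). Kif11 and Kif20a were thus the best detected of this group in control.

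Nusap1, which bundles microtubules near chromatin, had 95 counts in APAP and 13 in control, 5.91-fold higher (3.30 to 11.5). Kif2c, which takes microtubules apart at kinetochores, had 69 counts in APAP and 4 in control, 14.0-fold higher (5.21 to 52.7). Kif4, a chromosome-bound kinesin, had 64 counts in APAP and 0 in control, at least 17.3-fold higher. Kif23, the kinesin of the centralspindlin complex of cytokinesis, had 8 counts in APAP and 0 in control.

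**Figure D3:**
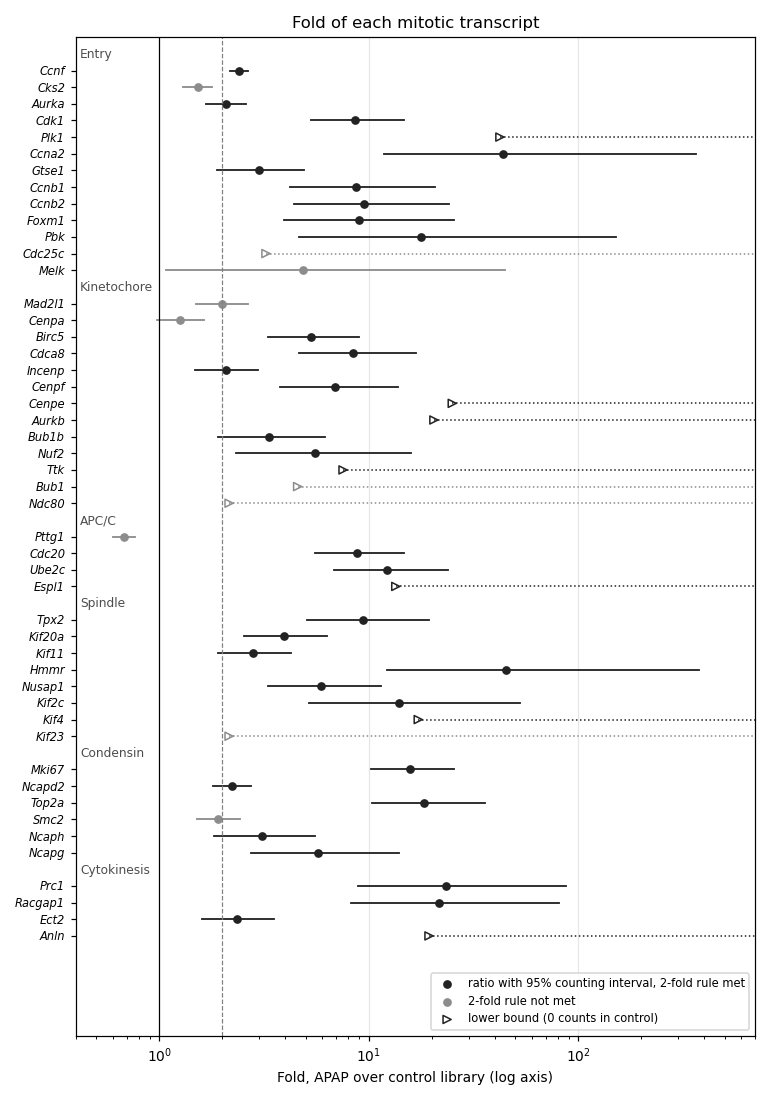
Each row is 1 gene with its fold, APAP over control, on a log axis, and its 95% counting interval (clipped at the axis end); open arrows are lower bounds for genes with 0 counts in control, grey marks genes that did not meet the rule, and the dashed line is 2-fold. Only Pttg1 lies left of 1.

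Condensin and chromosome structure genes ranged widely, with 5 of 6 higher and a median log2 fold of 2.03. Top2a, the topoisomerase that untangles sister chromatids, had 273 counts in APAP and 12 in control, 18.4-fold higher (10.4 to 36.1). Mki67, which coats mitotic chromosomes, had 430 counts in APAP and 22 in control, 15.8-fold higher (10.3 to 25.5). The condensin I subunit genes, which serve to fold chromosomes, differed by less. Ncapg had 57 counts in APAP and 8 in control, 5.76-fold higher (2.74 to 14.0), and Ncaph 69 and 18, 3.10-fold higher (1.82 to 5.54). Ncapd2 had 353 counts in APAP and 128 in control, 2.23-fold higher (1.82 to 2.75). Smc2, the ATPase shared by condensin I and II, had 242 counts in APAP and 102 in control, a ratio of 1.92 (1.52 to 2.44), just under the rule.

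The 4 cytokinesis members were all higher. Their median log2 fold was 4.33 (4.28 with Anln at its bound). Prc1, which bundles the central spindle, had 116 counts in APAP and 4 in control, 23.5-fold higher (8.92 to 87.5). Racgap1, the partner of Kif23 in centralspindlin, had 107 counts in APAP and 4 in control, 21.6-fold higher (8.21 to 80.9). Anln, which encodes anillin, the scaffold of the contractile ring, had 72 counts in APAP and 0 in control, at least 19.4-fold higher. Ect2, which activates RhoA at the division plane, had 105 counts in APAP and 36 in control, 2.36-fold higher (1.60 to 3.55). Prc1, Racgap1 and Anln were thus near or at 0 in control, and Ect2 was not.

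Late genes were then set beside early ones. The late list held the 4 cytokinesis members with the central spindle kinesins Kif20a and Kif23, and the early list held 12 genes of G2, from Foxm1 and the cyclins to Top2a. The median log2 fold was 4.27 for the 5 late members tested and 3.07 for the 11 early members tested. Of these, 3 late and 5 early members had fewer than 10 counts in control and passed the minimum only through APAP, and Racgap1, the late median, is one of them. Over members with at least 10 counts in control the medians were 1.59 for 2 late members (Ect2 and Kif20a) and 1.42 for 6 early members, a difference of 0.18. Kif20a shares 29.3% of its exon bases with a gene on the other strand, so its counts are uncertain. The lists overlapped widely: 8 of the 11 early members lay between the lowest and the highest late log2 fold, 1.23 for Ect2 and 6.87 for Anln. Plk1, an early member, had the largest log2 fold of both lists, at 7.99, and Cks2, also early, the smallest, at 0.61. The values of Anln and Plk1, both at 0 in control, depend on the prior of 0.5 counts and are no bounds. The 5 late members tested all met the 2-fold rule.

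The share of late counts within a library needs no scaling between libraries. Late members took 530 of 3850 counts of both lists in APAP, or 13.8% (12.7 to 14.9%, exact binomial), and 69 of 1009 in control, or 6.84% (5.36 to 8.58%). The ratio of late to early counts was thus 2.17 times as large in APAP (1.67 to 2.87). Leaving out 1 member at a time gave 1.803 (without Prc1) to 3.65 (without Ect2). This ratio depended on which early genes were summed: without Ccnf, Cks2 and Aurka, the early members with most counts in control, it was 0.556 (0.389 to 0.794). Without Ect2 and Kif20a as well, the late members with most counts in control, it was 2.74 (1.30 to 6.64). Both exclusions were chosen after the values were seen. The lists hold genes of both kinds, near 0 or well counted in control, and whether late counts gained on early ones changed with these choices.

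**Figure D4:**
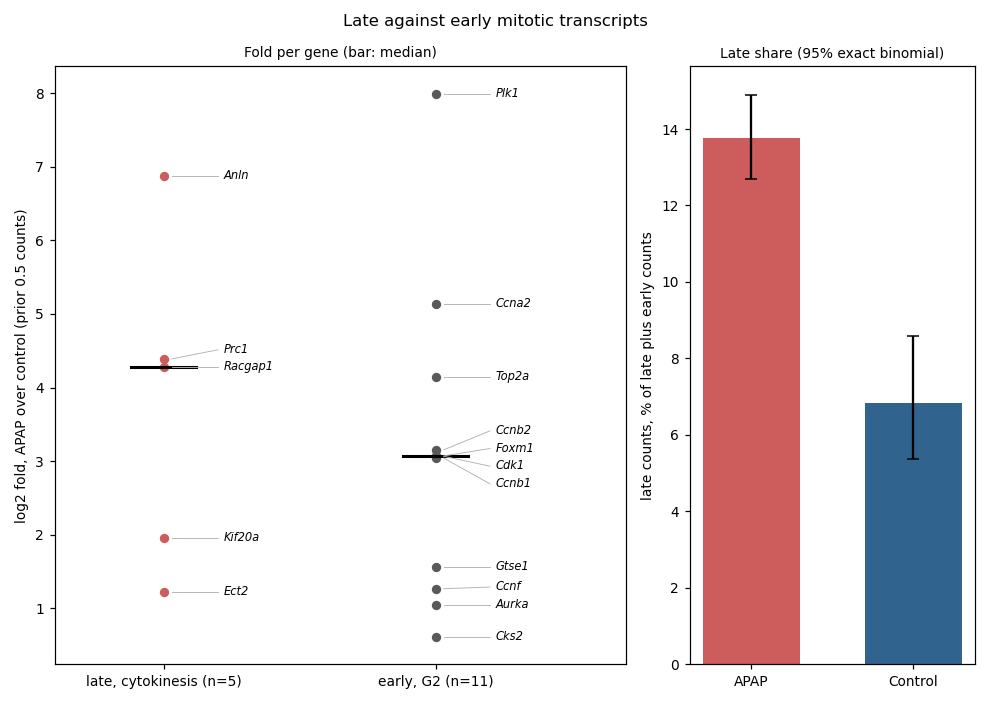
The left panel gives the log2 fold, APAP over control, of each tested late and early gene with the median of each list; the right panel gives late counts as a percentage of late plus early counts in each library with exact binomial 95% intervals. The medians are 4.27 for late and 3.07 for early genes, and the late share is 13.8% in APAP and 6.84% in control. Of the tested genes 3 late and 5 early members had fewer than 10 counts in control.

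Other genes of the same machinery were less uniform. Of 130 further genes in 6 lists, 129 were listed and 116 had at least 20 counts. Among those tested 33 were higher and 3 lower, the median log2 fold being 0.16. Shares among all tested genes were 10.7% higher and 7.09% lower, and 7.44% higher with at least 10 counts in control. Of the 116, 16 had fewer than 10 counts in control and passed the minimum only through APAP; among the other 100, 19 were higher and 3 lower, and their median log2 fold was 0.10. In the spindle list 13 of 23 tested genes were higher and 0 lower, and 6 of the 15 with at least 10 counts in control were higher. Ckap2l and Kif18b, which act on spindle microtubules, had 104 and 49 counts in APAP and 0 in control, at least 28.04-fold and 13.2-fold higher. Haus4, Haus6 and Haus1, subunits of the augmin complex that branches microtubules, had ratios of 0.613, 0.609 and 0.757. Numa1, a spindle pole protein, had a ratio of 0.9199 (0.876 to 0.966).

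In the kinetochore list 9 of 26 tested genes were higher and 1 was lower, and with at least 10 counts in control 5 of 22 were higher. Kntc1, which recruits checkpoint proteins, had 25 counts in APAP and 0 in control, at least 6.74-fold higher. Knl1, a scaffold for Bub1, had 39 counts in APAP and 4 in control, 7.89-fold higher (2.85 to 30.4), and Oip5, a centromere protein gene, had 36 and 1, a ratio of 29.1 (4.90 to 1182). Spc24, which belongs to the same complex as Ndc80 and Nuf2, was the lower one, with 247 counts in APAP and 460 in control, a ratio of 0.434 (0.371 to 0.508). Hjurp, which loads Cenpa, had 2445 counts in APAP and 3156 in control, a ratio of 0.627 (0.594 to 0.661).

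None of the 16 core and associated APC/C genes met the rule, with a median log2 fold of 0.07, while the activator Cdc20 and the enzyme Ube2c were higher. The ratios named by the rule ran from 0.744 for Cdc27 and 0.846 for Anapc1 to 1.51 for Anapc4, with Anapc5 at 1.09 and Anapc11 at 1.24. Of 12 tested condensin II and cohesin genes 3 were higher. These were Cdca5, which protects cohesin and had 36 counts in APAP and 2 in control, Sgo1, which guards centromeric cohesion, with 26 and 4, and the condensin II gene Ncapg2, with 62 and 14. No gene of this list was lower, and with at least 10 counts in control 1 of 10 was higher. The cohesin subunit genes had ratios of 0.520 for Stag2, 0.774 for Smc1a, 0.955 for Rad21, 1.07 for Smc3 and 1.21 for Stag1, of which Rad21, Smc3 and Stag1 are named after their values were seen. Wapl, which takes cohesin off chromosomes, had a ratio of 0.793. Smc4, Ncapd3 and Ncaph2, named after their values were seen, had 377, 379 and 2563 counts in APAP and 355, 272 and 1954 in control, and none met the rule.

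In the list of other cytokinesis genes 4 of 18 tested were higher and 0 were lower, against 10.7% and 7.09% of all tested genes. With at least 10 counts in control 3 of 17 were higher, against 7.44% of all genes with that many counts there. Myh9, the heavy chain of non-muscle myosin IIA, which also serves the cell cortex outside division, had 28177 counts in APAP and 7308 in control, 3.12-fold higher (3.04 to 3.20). Chmp4c, a subunit of the complex that cuts the last bridge between daughter cells, had 183 counts in APAP and 46 in control, 3.22-fold higher (2.32 to 4.55). Depdc1a had 22 counts in APAP and 0 in control, at least 5.93-fold higher. Vps4b, Spast and Kif13a had ratios of 0.714, 0.790 and 0.813. Scaling by total counts puts the ratios of Spast and Kif13a, and likewise those of Wapl, Anapc1 and Numa1, above 1.

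Among other regulators of entry 5 of 22 tested genes were higher and 2 were lower, against 10.7% and 7.09% of all tested genes. With at least 10 counts in control 4 of 21 were higher and 2 lower. The Cdk1 inhibitor kinases differed: Pkmyt1 had 194 counts in APAP and 22 in control, 7.13-fold higher (4.58 to 11.6), and Wee1 had 109 counts in APAP and 299 in control, a ratio of 0.295 (0.235 to 0.368). The Cdk1-activating phosphatase gene Cdc25b had 29 counts in APAP and 2 in control, a ratio of 11.7 (2.97 to 101), and Cks1b, the paralogue of Cks2, had 366 and 112, 2.64-fold higher (2.13 to 3.30). Rbl2, a member of the DREAM complex that silences mitotic genes in resting cells, had a ratio of 0.543 (0.5003 to 0.589). E2f8, a repressor linked to hepatocyte polyploidy, had a ratio of 0.536 (0.444 to 0.646), and Rbbp4 had one of 0.781. Cdkn1a, whose product p21 inhibits cyclin-dependent kinases and acts through DREAM, had 79.1 CPM in APAP and 1.42 CPM in control.

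The G1/S and replication genes, the nearest part of the cell cycle, had smaller differences. Of 33 genes 31 were tested, and of these 6 were higher and 1 lower, against 10.7% and 7.09% of all tested genes. The median log2 fold of the 31 was 0.44. Of the 29 with at least 10 counts in control, 4 were higher and 1 lower, against 7.44% higher among all genes with that many counts there. Their median log2 fold was 0.24, against 1.60 for the 25 members with that many counts. The summed level of the list was 202 CPM in APAP and 225 CPM in control. Its summed counts were 11594 in APAP and 10462 in control, so the order of the summed levels turns round with scaling by total counts. With that scaling 11 of the genes were higher, against 17.3% of all tested genes. The difference between the G2/M and the G1/S genes was not tested, since genes are not replicates.

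**Figure D5:**
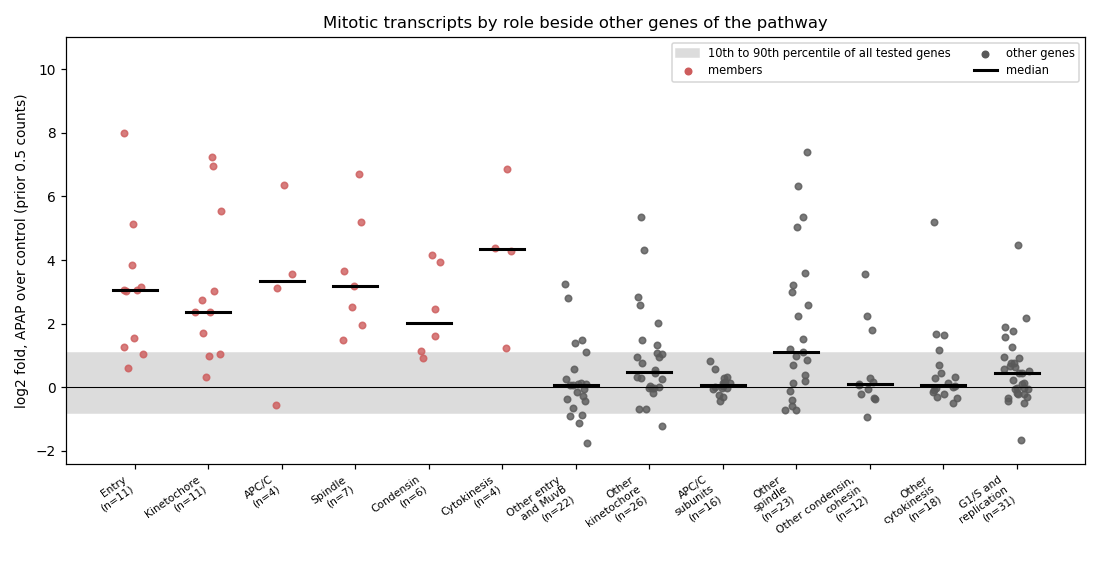
Points are log2 folds, APAP over control, of tested genes: members by role (left 6 columns) and other pathway and G1/S genes (right 7 columns), with a bar at each median and a band from the 10th to the 90th percentile of all tested genes. Medians of the members' groups lie between 2.03 and 4.33, and those of the other lists between 0.07 and 1.11. Genes with fewer than 10 counts in control make up 18 of the 43 members but 16 of the 116 other pathway genes, so these ranges are not on equal footing.

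Of the 40 members with a promoter window, 25 held both CHR and CCAAT letters, and 22 of the 24 tested among these were higher. Of the 3 with CHR letters alone, 2 were tested and 2 were higher. Of the 5 with CCAAT alone, 4 were tested and 3 were higher. Of the 7 with neither, 6 were tested and 4 were higher. Over all members 38 of the 43 tested were higher, against 10.7% of all tested genes. Whether the letters go with the call was not tested. Among those with neither, Birc5, Nuf2, Nusap1 and Ncaph were higher, while Mad2l1 and Pttg1 were not. Cenpa holds both and was not higher. Some genes share exon bases with a neighbour on the other strand in the GENCODE vM21 annotation, and the strand setting of the counting is not given in the sources used here. Of Kif20a 29.3% overlapped Cdc23, which had 368 counts in APAP and 244 in control. Ube2c overlapped Tnnc2, which had no row, by 22.8%. Kif4, Ncapg, Cdc25c, Ccna2 and Prc1 overlapped a neighbour by 15.1%, 13.4%, 12.7%, 12.5% and 11.1%. The counts of these 7 genes are uncertain by the reads that fall there. Kif20a and Prc1 are late members and Ccna2 and Cdc25c early ones, so the comparison of late with early members shares this uncertainty.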

How the data were processed

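Messenger RNA of 1 APAP and 1 control library of sorted hepatocytes was analysed. Per the labels' protocols, the kit was Tecan's for mRNA-seq. HISAT2, Subread and build mm39 are named in the submitters' processing notes, with no role or version; the annotation, strand setting and handling of mates are not given in the sources used here. Per Ensembl gene, the authors deposited raw counts, with 51009898 counts for APAP and 52419864 for control; no gene had 0 counts in both. They also deposited a normalized signal, which equals the counts divided by 1 size factor per library (1.12 for APAP and 0.894 for control) and was used as an alternative.

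Counts were scaled with TMM of edgeR 4.0.16 in R 4.3.3 (factors 1.13 for APAP and 0.887 for control), so that 1 count was worth 0.0174 CPM in APAP and 0.0215 CPM in control. Folds carry exact conditional Poisson (Clopper-Pearson) 95% intervals. For genes with 0 counts in control, the fold is a lower bound computed with 3 counts there, or 0.0645 CPM, taking the APAP count without error. Log2 folds used a prior of 0.5 counts. Intervals and floors cover counting error only, since no molecular identifiers are named in the labels. Low counts were mostly even (70.6% of counts from 1 to 20 in APAP and 68.3% in control), so intervals are too narrow if mates were counted separately, and an alternative halved the counts. DESeq2 1.42.0 size factors, total counts, and totals that leave out 18 genes each holding over 1% of a library, were further scalings. The DESeq2 size factors equal those of the authors' normalized signal. Symbols came from a table that matched 20679 identifiers. Python 3.11.15 was used for other steps.

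The members, the lists and the rule for named genes were chosen with earlier results of these data known. Members named in full were, per role, those with most counts, those at 0 in control and those missing the rule, and the text gives all 48. Of the cholangiocyte markers, 2 and the summed level are not reported here. Of other pathway genes, each list gave the 3 with the interval farthest above and below 1 and the one with most counts. Simulated counts for 20823 genes, drawn after this comparison, tested the steps: of 50 genes made 3-fold and 50 made 6-fold higher, 50 and 50 were called. The altered genes were all expected to be well counted in control, and counts were drawn with counting error alone. The simulation thus does not cover genes near 0 in control or mates counted separately.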

Additional observations from a re-analysis of the deposited data

How the results depend on the processing

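No paired analysis was possible because each group holds 1 library, and for the same reason no library could be left out. Of 130 recomputed summary values, 123 stayed within their limits: a count within 1.5 times, a median within the counting interval of its middle genes, the difference of late and early medians within 0.25, or a ratio within its interval. Some of the 130 are no separate check. The authors' signal repeats the DESeq2 size factors, and no scaling can change the late to early count ratio or the difference of medians. A rise in the number of members higher, in all or by role, could not pass 1.5 times, since the lists hold too few members. Only a fall in these numbers could leave the limit. Members called higher numbered 38 with DESeq2 size factors, the authors' normalized signal and halved counts. The number was 40 with total counts and with totals without genes above 1% of a library. It was 35 and 41 with minimums of 50 and 10 counts, and 31 and 41 under 3-fold and 1.5-fold rules. The shares over all tested genes were, in this order, 10.6%, 10.6%, 8.98%, 17.3%, 17.2%, 8.53%, 11.9%, 6.07% and 17.6%. No member was lower under any of these settings. The other pathway genes counted as lower were 1 with total counts and 1 with totals without genes above 1%, and the G1/S genes counted as higher were 11 and 10. The late to early count ratio was 3.65 without Ect2 and 0.556 without Ccnf, Cks2 and Aurka, an exclusion chosen after seeing the data that put it on the other side of 1. Of 192 member folds under the other scalings, 10 left their counting interval and none of the called ones changed sign. The 192 include the same folds under both DESeq2 size factors and the authors' signal. With no minimum 43 members were higher, beside 9.42% of all genes. With full counts, the 5 members under 20 counts were thus held back by the minimum, not by their intervals. With counts halved, the intervals of Ndc80, Kif23, Cdc25c and Melk included 1, with lower ends of 0.534, 0.534, 0.952 and 0.589. That of Bub1 did not, at 1.38. The late minus early difference of medians was 0.18 over members with at least 10 counts in control, an exclusion also chosen after seeing the data. The spread between animals is unknown.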
